A study of Mus musculus with 6 samples.

Results

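Xpc, Ddb2, Ercc5, Polh, Polk and Rrm2b are repair, translesion synthesis and nucleotide supply genes that have been described as targets of the transcription factor p53. They were selected by gene symbol, with earlier results of these data known, and are 6 of the 47719 gene identifiers in the data. All 6 were among the 13818 genes with a mean of at least 1 FPKM (fragments per kilobase of exon, scaled to the mapped fragments of each library) over the 6 mice, the level required for testing. The study asked how the Trp53 R270H mutation alters the prostate transcriptome after irradiation. Whole prostates of B6.129S4-Trp53tm3.1Tyj/J mice were profiled by RNA-Seq in 3 groups of 2 mice, namely wildtype (Trp53+/+, mice 39 and 41), heterozygous (Trp53R270H/+, mice 37 and 40) and homozygous (Trp53R270H/R270H, mice 47 and 49). Every mouse was about 3 months old, received 5 Gy to the whole body and was sampled 6 h later, so that all groups share the irradiation and no unirradiated prostate enters any comparison. The values are therefore differences between genotypes in irradiated tissue, and not responses to irradiation.

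Nucleotide excision repair removes bulky lesions such as ultraviolet photoproducts: a damage sensor binds the distorted helix, the TFIIH complex opens it, nucleases cut the damaged strand on either side, and the gap is refilled by DNA polymerases that draw on the deoxynucleotide pool. Lesions that persist into replication can be passed by translesion polymerases, which copy across a damaged base. Ribonucleotide reductase makes deoxynucleotides from ribonucleotides and is built from a large catalytic subunit (Rrm1) and a small radical-bearing subunit, which is either Rrm2, mainly made in cycling cells, or Rrm2b, which serves resting and damaged cells. The 6 genes cover these steps, with Ddb2 and Xpc in damage recognition, Ercc5 in incision, Polh and Polk in translesion synthesis and Rrm2b in nucleotide supply.

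The libraries were of similar depth but differed in the levels of tissue marker genes. Summed FPKM ranged from 518671 to 636407, 13452 to 13827 genes reached 1 FPKM in a mouse, and the relative depth read from the spacing of the low values ranged from 0.787 to 1.07 times that of mouse 39. Read counts were not used here, so counting error per gene is unknown. The summed FPKM of 13 skeletal muscle genes was 1948 and 2809 (wildtype), 5379 and 5664 (heterozygous) and 6667 and 5729 (homozygous), rising with allele number without overlap. Their median homozygous minus wildtype log2 difference was 1.375. At an unadjusted p under 0.05, limma gave 12 of the 13 higher in homozygous mice, against 8.65% of tested genes. After adjustment it called 0 of the 13 there, where 0.384% of tested genes were called. Prostate epithelial markers (10 genes) summed to 1478 in homozygous mouse 47 against 13872 to 23696 in the other mice, and seminal vesicle markers (8 genes) summed to 3494 in wildtype mouse 39 against 35209 to 64608 in the others. Single seminal vesicle markers disagreed with that sum. Svs2 was 0 FPKM in both homozygous mice, and Svs4 and Svs5 were 0 in mouse 47, against 256, 1331 and 1731 in mouse 39. The remaining genes of that list were lowest in mouse 39. In these bulk samples, fewer cells of a type and less RNA per cell cannot be told apart. Trp53 itself did not separate the genotypes, at 17.3 and 21.4 FPKM in wildtype mice, 20.9 and 19.6 in heterozygotes and 20.8 and 18.3 in homozygotes, and gene-level FPKM does not show the R270H codon. Cdkn1a, a cell cycle inhibitor and a classical p53 target, was 109 and 101 FPKM in wildtype mice, 40.5 and 41.4 in heterozygotes and 6.70 and 6.17 in homozygotes.

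The data showed 2 patterns among the 6 genes. Polk and Ercc5 were lower in every mutant mouse than in either wildtype mouse, at 35.0% and 61.9% of the wildtype mean in homozygous mice, and were ordered by the number of R270H alleles, but neither difference passed the threshold of limma's test adjusted over all tested genes. Xpc, Ddb2, Polh and Rrm2b overlapped between genotypes, with homozygous means from 102.7% to 109% of the wildtype mean. Of 68 tested genes that work with them, Rrm1 alone passed that threshold in homozygous mice (limma adjusted p = 0.0459). Of all tested genes, 0.384% passed it there. The Rrm1 call was lost in 11 of 15 alternative analyses, every omission of 1 mouse included.

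Promoter windows are shown for Ercc5, Polk and Polh because the promoter set used here held none for Xpc, Ddb2 or Rrm2b. Ercc5 and Polk were lower in the mutant mice, whereas the genotypes overlapped for Polh, a polymerase of the same Y family as Polk. The RefSeq windows (GRCm38.p6) hold 250 bases before and 50 bases after an annotated start, for 3 of the 6 genes and 4 starts. Capitals mark exact matches, on either strand, to the p53 half-site consensus, to the GC box GGGCGG, to the motif CCAAT or to the motif TATAA. The windows are Ercc5 at chr1:44147494-44147793 on the plus strand, the Polk start furthest upstream at chr13:96542530-96542829 on the minus strand, an internal Polk start at chr13:96519138-96519437 on the minus strand, and Polh at chr17:46202592-46202891 on the minus strand.
Ercc5: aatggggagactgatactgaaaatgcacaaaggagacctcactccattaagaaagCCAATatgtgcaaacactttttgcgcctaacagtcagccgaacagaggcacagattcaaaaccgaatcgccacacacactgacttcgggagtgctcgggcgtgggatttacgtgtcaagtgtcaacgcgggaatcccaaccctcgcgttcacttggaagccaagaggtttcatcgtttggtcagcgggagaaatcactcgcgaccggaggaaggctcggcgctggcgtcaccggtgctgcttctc
Polk, upstream start: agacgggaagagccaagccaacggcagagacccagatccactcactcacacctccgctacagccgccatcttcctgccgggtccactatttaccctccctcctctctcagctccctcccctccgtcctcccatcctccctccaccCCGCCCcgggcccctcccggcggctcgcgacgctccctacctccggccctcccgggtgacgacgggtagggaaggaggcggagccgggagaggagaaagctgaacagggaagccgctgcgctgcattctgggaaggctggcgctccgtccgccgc
Polk, internal start: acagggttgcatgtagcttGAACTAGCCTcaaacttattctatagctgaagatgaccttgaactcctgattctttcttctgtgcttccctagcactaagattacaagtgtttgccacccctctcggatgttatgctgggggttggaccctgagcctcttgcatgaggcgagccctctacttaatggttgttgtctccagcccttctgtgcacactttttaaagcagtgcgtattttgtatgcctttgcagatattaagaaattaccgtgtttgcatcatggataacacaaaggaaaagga
Polh: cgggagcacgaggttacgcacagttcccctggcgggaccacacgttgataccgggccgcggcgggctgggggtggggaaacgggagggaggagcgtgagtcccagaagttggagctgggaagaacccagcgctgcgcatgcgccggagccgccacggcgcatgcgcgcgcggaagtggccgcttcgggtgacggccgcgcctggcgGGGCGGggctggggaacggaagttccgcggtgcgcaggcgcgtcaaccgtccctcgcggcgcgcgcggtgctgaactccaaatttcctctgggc
The internal Polk window held 1 exact p53 half-site, GAACTAGCCT, at position -231 from that start, and the other 3 windows held none. An exact half-site was present in 8.36% of 32851 RefSeq mouse promoter windows of this length, and a full site of 2 exact half-sites 0 to 13 bases apart in 0.0731%. GGGCGG was found in the upstream Polk window (on the opposite strand, as CCGCCC) and in the Polh window, against 35.7% of all windows, and CCAAT in the Ercc5 window, against 37.4%. TATAA was in none of the 4 windows and in 24.9% of all windows. The upstream Polk window and the Polh window were GC-rich (68.7% and 72.0%), whereas the Ercc5 and internal Polk windows were at 53.3% and 44.3%. These matches describe the letters of the windows and no binding was measured.

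Among the damage recognition genes, neither sensor separated the genotypes. Ddb2 (chr2:91211572-91236982, minus strand, mm10) encodes the subunit of the UV-damaged DNA-binding complex that recognizes photoproducts in chromatin, and Xpc (chr6:91489305-91515888, minus strand) encodes the sensor that starts global genome repair. Ddb2 was 7.90 and 9.38 FPKM in wildtype mice 39 and 41, 8.01 and 8.0 in heterozygous mice 37 and 40, and 10.4 and 7.81 in homozygous mice 47 and 49. Homozygous mouse 47 was the highest and homozygous mouse 49 the lowest, so the homozygous range enclosed every other mouse. The homozygous minus wildtype difference in log2(FPKM + 0.1) was 0.07 ± 0.18 (SE; 95% interval -0.38 to 0.51; limma adjusted p = 0.866), and that of heterozygous mice was -0.10 (95% interval -0.55 to 0.34; limma adjusted p = 0.964). Ddb2 overlaps Acp2 on the opposite strand over 2527 bases. The libraries were directional, but whether strand was used in quantification is not given in the sources used here.

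Xpc was 6.78 and 6.06 FPKM in wildtype mice, 6.73 and 7.46 in heterozygotes and 6.92 and 6.55 in homozygotes. The 3 genotypes overlapped, and the spread over all mice was the narrowest of the 6 genes (root mean square deviation of 0.0887 on the log2 scale). The log2 difference from wildtype was 0.07 ± 0.14 (SE; 95% interval -0.27 to 0.41; limma adjusted p = 0.808) in homozygous and 0.14 ± 0.14 (SE; 95% interval -0.19 to 0.48; limma adjusted p = 0.919) in heterozygous mice. As ratios, the homozygous intervals run from 0.832 to 1.32 for Xpc and from 0.770 to 1.42 for Ddb2, and falls as large as that of Polk lie outside both.

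Ercc5 (chr1:44147744-44181260, plus strand) encodes XPG, the nuclease that cuts the damaged strand on the 3′ side of the lesion. It was 11.7 and 8.80 FPKM in wildtype mice, 6.84 and 7.14 in heterozygotes and 6.19 and 6.50 in homozygotes. Every mutant mouse lay below both wildtype mice, and both homozygous mice lay below both heterozygous mice. The mean level fell from 10.3 ± 2.06 FPKM (SD, n = 2) to 68.1% of that value in heterozygous and 61.9% in homozygous mice, but neither difference passed the adjusted threshold. On the log2 scale the differences from wildtype were -0.53 ± 0.17 (SE; 95% interval -0.95 to -0.12; limma adjusted p = 0.573) in heterozygous and -0.67 ± 0.17 (SE; 95% interval -1.08 to -0.26; limma adjusted p = 0.168) in homozygous mice. Of the log2 difference between wildtype and homozygous mice, 79.5% was already present in heterozygous mice. The further Ercc5 step from heterozygous to homozygous mice was -0.14 (95% interval -0.55 to 0.28, limma adjusted p = 0.804), an interval that spans 0. The ratio of Ercc5 to Xpc, 2 genes of the same pathway, was 1.73 and 1.45 in wildtype mice, 1.02 and 0.956 in heterozygotes and 0.894 and 0.992 in homozygotes, so the mutant genotypes overlapped each other and neither reached the wildtype ratios.

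**Figure D1:**
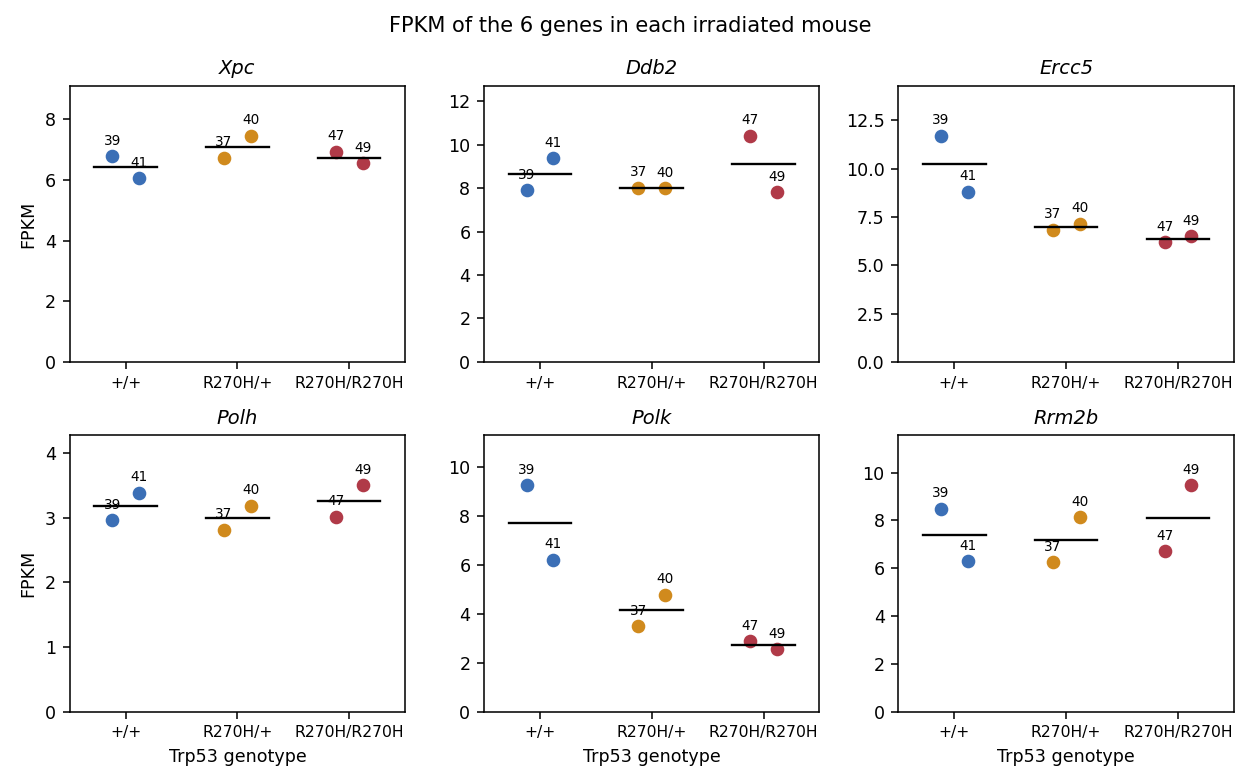
FPKM of each of the 6 genes (vertical axis, from 0) by Trp53 genotype, with 1 point per mouse labelled with its number and a bar at the mean of 2 mice. Polk and Ercc5 step down from wildtype to heterozygous to homozygous mice without overlap, whereas the genotypes overlap for Xpc, Ddb2, Polh and Rrm2b.

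The translesion polymerases Polk and Polh differed in pattern. Polk (chr13:96480690-96542579, minus strand) encodes polymerase kappa, which extends past bulky adducts on guanine and also takes part in gap filling during excision repair. It was 9.24 and 6.18 FPKM in wildtype mice, 3.48 and 4.78 in heterozygotes and 2.87 and 2.53 in homozygotes. Each genotype lay wholly below the one with fewer R270H alleles. Mean Polk was 7.71 ± 2.16 FPKM (SD, n = 2) in wildtype mice, 53.6% of that in heterozygous and 35.0% in homozygous mice. The log2 difference from wildtype was -0.87 ± 0.26 (SE; 95% interval -1.51 to -0.24; limma adjusted p = 0.525) in heterozygous and -1.45 ± 0.26 (SE; 95% interval -2.09 to -0.82; limma adjusted p = 0.11) in homozygous mice. The further step from heterozygous to homozygous mice was -0.58 (95% interval -1.22 to 0.06; limma adjusted p = 0.707) and -0.357 without heterozygous mouse 40. The difference of heterozygous mice from the log2 midpoint of the other genotypes was -0.15 (95% interval -0.70 to 0.40; limma adjusted p = 0.98), an interval that reaches to both sides of the midpoint. Polk fell at percentile 1.88 of all tested genes in the homozygous and 0.977 in the heterozygous difference, counted from the most negative, and Ercc5 at percentiles 6.17 and 2.72.

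Polh (chr17:46171355-46202645, minus strand) encodes polymerase eta, which copies accurately across ultraviolet thymine dimers. It was the lowest of the 6 genes in wildtype and heterozygous mice, at 2.96 and 3.39 FPKM in wildtype mice, 2.81 and 3.19 in heterozygotes and 3.02 and 3.51 in homozygotes, and the genotypes overlapped throughout. The homozygous minus wildtype difference was 0.04 ± 0.19 (SE; 95% interval -0.42 to 0.50; limma adjusted p = 0.936) on the log2 scale and turned to -0.09 after quantile normalization, and the heterozygous difference was -0.08 (95% interval -0.54 to 0.38; limma adjusted p = 0.971). FPKM is scaled by transcript length, so the levels of the polymerases can be set side by side. The ratio of Polk to Polh was 3.12 and 1.82 in wildtype mice, 1.24 and 1.5 in heterozygotes and 0.951 and 0.723 in homozygotes. Polk therefore exceeded Polh in the 4 mice that carry a wildtype allele and was below it in both homozygous mice.

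Rrm2b (chr15:37923952-37961318, minus strand) was 8.50 and 6.28 FPKM in wildtype mice, 6.25 and 8.14 in heterozygotes and 6.71 and 9.47 in homozygotes. Mice of one genotype differed by more than the genotype means did, which were 7.39 ± 1.56, 7.19 ± 1.33 and 8.09 ± 1.96 FPKM (SD, n = 2 each). The log2 difference from wildtype was 0.12 ± 0.25 (SE; 95% interval -0.49 to 0.74; limma adjusted p = 0.815) in homozygous and -0.03 ± 0.25 (SE; 95% interval -0.65 to 0.58; limma adjusted p = 0.992) in heterozygous mice. The homozygous interval runs from 0.711 to 1.67 as a ratio. A processed pseudogene, Gm3362, lies within Rrm2b on the same strand over 466 bases at a mean of 1.94 FPKM, so the division of reads between the pair is uncertain.

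**Figure D2:**
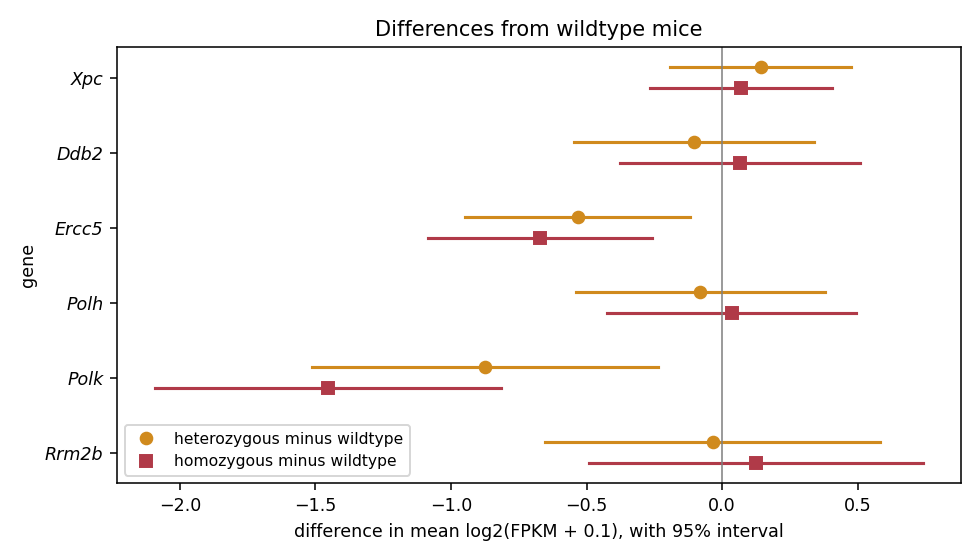
Difference in mean log2(FPKM + 0.1) from wildtype mice (horizontal axis) for each gene, with the 95% interval of the limma fit over 6 mice, circles for heterozygous and squares for homozygous mice. The intervals of Polk and Ercc5 lie below 0 in both genotypes and those of the other 4 genes span 0; these intervals are not adjusted for the number of genes tested.

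Read against the whole transcriptome, limma called 0 of the 6 genes at an adjusted p under 0.05 in homozygous against wildtype mice, where 0.384% of tested genes (53) were called, 36 lower and 17 higher. It also called 0 of 6 in heterozygous against wildtype mice (0% of tested genes called), in homozygous against heterozygous mice (0.0145%), in heterozygous mice against the midpoint (0%) and across the 3 genotypes (0.101%). At an unadjusted p under 0.05, limma gave 2 of 6 lower in homozygous mice, against 9.32% of tested genes, and 2 of 6 lower in heterozygous mice, against 2.21%. It gave 2 of 6 across the 3 genotypes (11.5% of tested genes), 0 of 6 in homozygous against heterozygous mice (6.39%) and 0 of 6 against the midpoint (3.1%). When each gene was tested alone, without a variance shared between genes, 2 of 6 had an unadjusted p under 0.05 in homozygous against wildtype mice (14.1% of tested genes) and 1 of 6 across the 3 genotypes (9.5%). The same test gave 0 of 6 in heterozygous against wildtype mice (7.38%), in homozygous against heterozygous mice (5.78%) and against the midpoint (4%), and 0 of 6 in every comparison after adjustment.

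The values of 2 of the 6 genes fell with allele number without overlap, against 4.98% of tested genes, and 0 rose. Both homozygous mice were below both wildtype mice for 2 of 6 genes, against 28.7% of tested genes, and both heterozygous mice for 2 of 6, against 19.9%. In each of these counts the genes were Polk and Ercc5. The median log2 difference of the 6 genes was 0.05 in homozygous and -0.09 in heterozygous mice, beside -0.04 and -0.01 over all tested genes. The fold changes rest on log2(FPKM + 0.1), which understates the change of low genes.

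For Polk and Ercc5 both homozygous mice lay below both wildtype mice. Leaving out 1 mouse could therefore change the size of these differences but not their sign. Wildtype mouse 39 held the highest value of both genes and had the low seminal vesicle sum, and without it the homozygous log2 differences were -1.17 for Polk (limma adjusted p = 0.31) and -0.467 for Ercc5 (limma adjusted p = 0.355), and the heterozygous difference of Ercc5 was -0.329. Without homozygous mouse 47, which had the low epithelial sum, they were -1.54 (limma adjusted p = 0.335) and -0.636 (limma adjusted p = 0.411). The skeletal muscle sum rose with allele number while both genes fell, and its part in their difference was not tested.

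The genes whose 6-mouse profile was closest to that of each member were taken from all tested genes by the root mean square difference of centred log2 values, as a description only. Polk had no gene within 0.1, and its nearest were Slc19a2 (0.152), a thiamine transporter, Zmat3 (0.164), an RNA-binding protein and known p53 target, and Exoc4 (0.167), a subunit of the exocyst. In homozygous mice the log2 differences of those genes were -1.40, -1.53 and -1.27 (limma adjusted p = 0.0925, 0.0291 and 0.0467). Ercc5 had 15 genes within 0.1, led by Wdr35 (0.0379), Cpped1 (0.0455) and Perp (0.0540), a desmosomal protein and known p53 target, with homozygous log2 differences of -0.70, -0.75 and -0.58 (limma adjusted p = 0.17, 0.136 and 0.219). The flat profiles had many neighbours, with 395 for Xpc (nearest Akirin2, Polr3gl and Letm2), 214 for Ddb2 (Oma1, Ripk4 and Tial1), 618 for Polh (Klhl9, Mettl4 and Pikfyve) and 55 for Rrm2b (Arhgap29, Nek7 and Nbeal1).

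The partners of these genes were examined in 7 lists holding 74 other genes of excision repair, translesion synthesis and nucleotide supply, of which 68 were tested. In homozygous against wildtype mice limma called 1 of the 68 lower (Rrm1, a call lost in 11 of 15 alternatives) and 0 higher. Of all tested genes, 0.384% were called there. At an unadjusted p under 0.05 it gave 9 lower, which is 13.2% of the 68 beside 9.32% of all tested genes, and 0 higher, beside 8.65%. Their median log2 difference was -0.10, beside -0.04 over all tested genes, and 4 of them (5.88%) were at least 1.5-fold lower, beside 7.6% of all tested genes. In heterozygous mice 0 were called, beside 0% of all tested genes. At an unadjusted p under 0.05 limma gave 5 (7.35%) lower there, beside 2.21% of all tested genes. At least 1.5-fold lower were 3 (4.41%), beside 2.28%. These shares describe lists that were chosen with earlier results known and were not tested.

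Around the recognition genes, 0 of 7 partners were called in homozygous against wildtype mice, where 0.384% of all tested genes were called. Ddb1, which pairs with Ddb2 in the damage-binding complex, was 117 and 113 FPKM in wildtype mice, 111 and 95.3 in heterozygotes and 74.0 and 95.1 in homozygotes, with a homozygous log2 difference of -0.46 (limma adjusted p = 0.249) that was -0.279 without mouse 47. The ubiquitin ligase scaffold Cul4b was at 0.18 (limma adjusted p = 0.637). Of the 4 transcription-coupled repair genes 0 were called, with Xab2 at -0.14 and Ercc8, the CSA protein, at -0.05. All 10 TFIIH genes had a negative homozygous difference, and 0 were called. Their median was -0.15, beside -0.04 over all tested genes, and the share of all tested genes with a negative difference was not counted. The largest were those of Gtf2h4 at -0.41 (limma adjusted p = 0.323) and Gtf2h2 at -0.39 (limma adjusted p = 0.237), and the smallest was -0.0768. The negative sign was not held by each homozygous mouse alone. Gtf2h1 was 14.8 FPKM in mouse 47 but 17.7 in mouse 49, above the 17.5 and 17.0 of wildtype mice. Cdk7 was 3.90 in mouse 47 and 4.36 in mouse 49, beside 4.25 and 4.46 in wildtype mice. Gtf2h2 was lowest in heterozygous mice, with 7.98 and 8.79 FPKM in wildtype mice, 5.08 and 5.44 in heterozygotes and 6.72 and 6.07 in homozygotes, and a heterozygous log2 difference of -0.66 (limma adjusted p = 0.29), so it did not follow allele number. The 6 damage verification and incision genes that work beside Ercc5 were likewise all negative, with a median of -0.17 and 0 called, and the largest were the single-strand binding subunits Rpa1 (-0.36) and Rpa3 (-0.25), which came to -0.177 and -0.0835 without mouse 47. The TFIIH and incision genes were also all negative after quantile normalization. Median scaling moved the median of all genes by 0.0165, too little to change the sign of any of them. Of 15 tested gap filling genes 5 were negative (7 after quantile normalization) and 0 called, with a median of 0.03. The largest gap filling differences were those of Pold4, a subunit of polymerase delta (-0.49, limma adjusted p = 0.245), and of the clamp loader subunit Rfc2 (-0.35, limma adjusted p = 0.278).

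**Figure D3:**
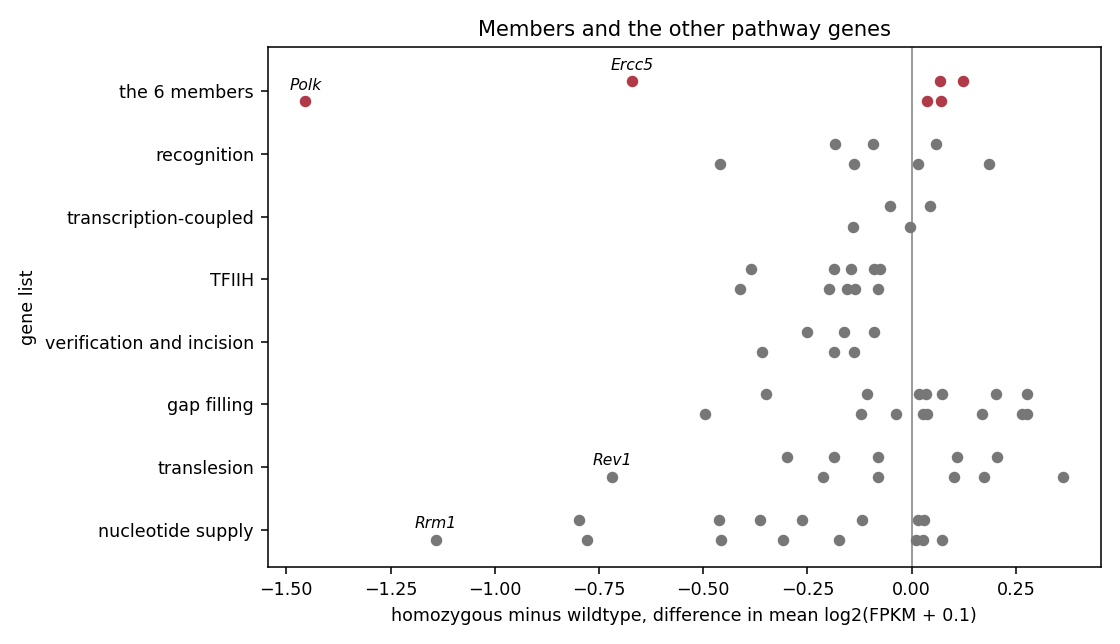
Homozygous minus wildtype difference in mean log2(FPKM + 0.1) (horizontal axis), with 1 point per tested gene, for the 6 genes and the 7 lists of pathway genes (rows; vertical offsets only separate points). Polk at -1.45 and Rrm1 at -1.14 lie furthest to the left, and all 10 TFIIH genes lie below 0, as does the median of all tested genes (-0.04).

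In the translesion list 0 of 11 tested genes were called in homozygous against wildtype mice, beside 0.384% of all tested genes, and 6 were negative. Rev1, the scaffold polymerase of translesion synthesis, was 8.57 and 8.18 FPKM in wildtype mice, 5.75 and 5.33 in heterozygotes and 4.43 and 5.75 in homozygotes. All 4 mutant mice were below both wildtype mice while the mutant genotypes overlapped, and the log2 differences were -0.59 (limma adjusted p = 0.488) and -0.72 (limma adjusted p = 0.153). Rev1 overlaps Eif5b on the opposite strand over 2794 bases. Poli, which encodes polymerase iota and was added to the named genes after its values were seen as the remaining Y-family member, was 4.93 and 4.36, 4.46 and 4.05, and 3.70 and 3.80 FPKM in the same order of genotypes, with a homozygous log2 difference of -0.30 (95% interval -0.68 to 0.08; limma adjusted p = 0.359). Shprh, a ubiquitin ligase acting on PCNA, was at 0.36 (limma adjusted p = 0.486) and at 0.239 without mouse 49.

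**Figure D4:**
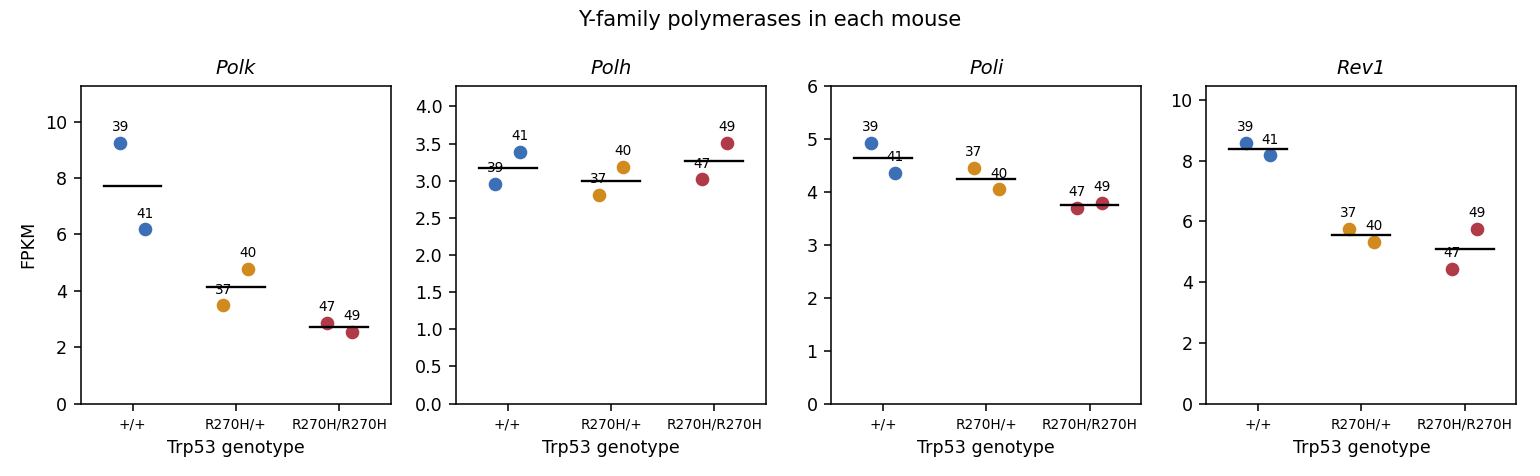
FPKM (vertical axis, from 0) of the 4 Y-family translesion polymerase genes by Trp53 genotype, with 1 point per mouse and a bar at the mean of 2 mice. Polk is ordered by allele number without overlap, Rev1 separates wildtype from mutant mice, the genotypes overlap for Polh, and for Poli both homozygous mice lie below the other 4, which overlap.

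Rrm1, the large subunit that Rrm2b needs for activity, was lower in homozygous mice in the nucleotide supply list. It lies at chr7:102441695-102469771 on the plus strand, where Gm45399, which has no FPKM value here, shares 1016 bases with it on the same strand. Rrm1 was 11.04 and 10.6 FPKM in wildtype mice, 6.09 and 6.16 in heterozygotes and 5.10 and 4.62 in homozygotes. The genotypes did not overlap, and the spread within each was small. The homozygous log2 difference was -1.14 ± 0.12 (SE; 95% interval -1.45 to -0.83; limma adjusted p = 0.0459), which leaves 44.9% of the wildtype mean, and the heterozygous difference was -0.81 (95% interval -1.12 to -0.51; limma adjusted p = 0.221). The call was lost in 11 of 15 alternative analyses, every omission of 1 mouse included, with adjusted p from 0.0403 to 0.24 over the 15, while the difference stayed between -1.21 and -1.01.

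Both small subunits overlapped between genotypes. Rrm2, likewise added after its values were seen, was 5.93 and 4.89 FPKM in wildtype mice, 4.22 and 4.6 in heterozygotes and 6.00 and 4.91 in homozygotes, with a homozygous log2 difference of 0.01 (95% interval -0.43 to 0.45; limma adjusted p = 0.981). The ratio of Rrm1 to the sum of Rrm2 and Rrm2b was 0.765 and 0.952 in wildtype mice, 0.582 and 0.483 in heterozygotes and 0.402 and 0.322 in homozygotes, falling with allele number without overlap. The ratio of Rrm2b to Rrm2 was 1.43 and 1.28 in wildtype mice, 1.48 and 1.77 in heterozygotes and 1.12 and 1.93 in homozygotes, so Rrm2b was the more abundant small subunit in all 6 mice and the genotypes overlapped. The summed FPKM of 10 cycling cell genes was 20.4 and 19.8 in wildtype mice, 15.2 and 16.5 in heterozygotes and 20.5 and 19.5 in homozygotes, so that it was lower in heterozygous than in wildtype mice, as Rrm1 was, and overlapped between wildtype and homozygous mice. Its part in the Rrm1 difference was not tested.

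**Figure D5:**
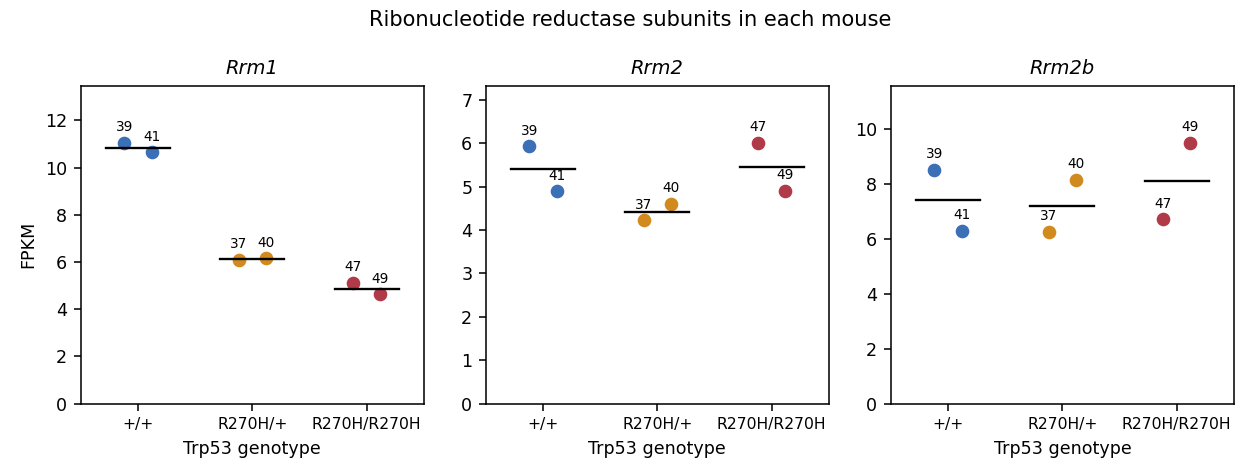
FPKM (vertical axis, from 0) of the ribonucleotide reductase subunit genes by Trp53 genotype, with 1 point per mouse labelled with its number and a bar at the mean of 2 mice. Rrm1 falls with each R270H allele without overlap, whereas the genotypes overlap for Rrm2 and Rrm2b.

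Of the 15 tested nucleotide supply genes 10 had a negative homozygous difference (13 after quantile normalization, Rrm2 included), with a median of -0.26. Thymidine kinase Tk1 was 5.45 and 5.07 FPKM in wildtype mice, 8.05 and 5.43 in heterozygotes and 2.23 and 3.97 in homozygotes (homozygous log2 difference -0.80, limma adjusted p = 0.275), and its difference was -0.396 without mouse 47 and -1.2 without mouse 49. Guanylate kinase Guk1 was 68.3 and 110.7, 76.9 and 60.6, and 52.4 and 48.9 FPKM in the same order of genotypes (homozygous log2 difference -0.78, limma adjusted p = 0.219), and its difference was -0.432 without wildtype mouse 41. Both homozygous mice were below the other 4 for each kinase, while wildtype and heterozygous mice overlapped. Besides Rrm1, the pathway genes whose values fell with allele number without overlap were Ddb1 and the dUTPase gene Dut, which was 13.1 and 11.5, 10.5 and 10.4, and 9.52 and 8.25 FPKM (homozygous log2 difference -0.46, limma adjusted p = 0.195) and is named after its values were seen. Of the 68 tested pathway genes, only Rrm1 and Dut (2 of 15 nucleotide supply genes) and Ddb1 (1 of 7 recognition genes) thus had such an order. Among all tested genes the share was 4.98%, and neither the pathway genes nor the single lists were tested against it.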

How the data were processed

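Messenger RNA from 1 whole prostate per mouse was sequenced from directional libraries. Per the submitters' processing notes, the authors used bcl2fastq, HISAT, Cufflinks and Cuffnorm with mouse build mm10 and deposited gene-level FPKM values, 1 file per mouse. Versions, and the use of strand in quantification, are not given in the sources used here. FPKM hides read counts, so no count model was used.

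Groups came from the genotype labels. Genes with a mean of at least 1 FPKM over the 6 mice (13818) were tested on log2(FPKM + 0.1) with limma 3.58.1 in R 4.3.3 (intensity trend, all 6 mice, 3 residual degrees of freedom), with Benjamini-Hochberg adjustment over all of them, a threshold of 0.05 and two-sided tests. The code was tested on simulated data. Python 3.11.15, pandas 2.3.3 and matplotlib 3.10.9 were used for tables and plots. Coordinates are from GENCODE M21 (GRCm38) and promoters from RefSeq (GRCm38.p6).

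Text names the 6 genes, pathway genes called in any contrast, the 2 others per list with the largest homozygous difference, and the 3 nearest profiles of each gene. The members and lists were chosen with earlier results of these data known. Alternatives changed the pseudocount, filter, scaling, variance prior, mice in the fit and test. In the main fit, each p-value sets a difference against the spread between mice, pooled over 3 genotypes of 2 mice and partly shared between genes.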

Additional observations from a re-analysis of the deposited data

How the results depend on the processing

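In every alternative that kept all 6 genes and 2 mice in each genotype compared, 0 of the 6 were called. The genes ordered by allele number numbered 2 wherever they were counted. Omitting 1 mouse could not undo the order of Polk and Ercc5, and no order was counted for the changed pseudocounts. At a mean FPKM of at least 5, Polk and Polh were not tested and these counts were not formed. The homozygous log2 difference ranged from -1.74 to -1.17 for Polk (limma adjusted p 0.0947 to 0.335) and from -0.874 to -0.467 for Ercc5 (0.134 to 0.411), and the heterozygous difference from -1.16 to -0.588 and from -0.737 to -0.329. The count of pathway genes called in homozygous mice went from 1 to 0 with no filter, quantile normalization, no variance trend, each gene tested alone, only the 4 mice compared, and every omission of 1 mouse (0 to 0). Over all tested genes, the homozygous count of 53 became 4 with no filter, 23 with no trend, 0 with each gene alone, 2 with 4 mice and 4 to 96 when 1 mouse was omitted; the homozygous against heterozygous count of 2 ranged from 0 to 40, and the heterozygous count of 0 reached 1. Quantile normalization turned the homozygous difference of Polh to -0.0908 and the heterozygous differences of Shprh to -0.0942 and Xab2 to 0.00572; it moved the median of all genes by 0.0264.

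When 1 mouse was omitted, small differences changed sign, and the cause was not tested. Against wildtype, the homozygous differences ranged from -0.139 to 0.273 for Ddb2, -0.0691 to 0.141 for Polh, -0.122 to 0.37 for Rrm2b, -0.00973 to 0.15 for Xpc and -0.111 to 0.00857 for Ercc8. The heterozygous differences ranged from -0.225 to 0.0185 for Ddb2, -0.175 to 0.0149 for Polh, -0.249 to 0.18 for Rrm2b, -0.276 to 0.0773 for Cul4b, -0.129 to 0.000118 for Ercc8, -0.154 to 0.329 for Gtf2h4, -0.263 to 0.176 for Pold4, -0.298 to 0.0168 for Rfc2, -0.099 to 0.168 for Shprh and -0.0712 to 0.0597 for Xab2. Homozygous against heterozygous differences ranged from -0.0354 to 0.377 for Ddb2, -0.0872 to 0.405 for Rrm2b and -0.147 to 0.0017 for Xpc, and differences from the midpoint from -0.37 to 0.0755 for Polk and -0.285 to 0.091 for Rrm2b. No paired analysis was possible because the labels carry no replicate numbers shared between genotypes.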
